A study of Mus musculus with 11 samples.

Results

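The non-coding RNA features around Prox1 and Slc6a9, a pair of genes of inner retinal neurons, were described in mouse retinas with and without Nrl. The Prox1 window spans 230 kb of chromosome 1 and the Slc6a9 window 240 kb of chromosome 4 (mm10). Every unique feature of the deposited table that overlaps either window was taken, by position alone. This gave 25 features of 36097, 15 in the Prox1 window and 10 in the Slc6a9 window. The 5 wild-type and 6 Nrl knock-out libraries came from retina at post natal day 21, and in both groups the RNA was depleted of polyadenylated transcripts. Nrl encodes the transcription factor that makes new photoreceptors become rods, and the labels do not give the part of the gene changed in the knockout allele. Nothing in the labels ties a replicate to an animal, so p-values here cover only library-to-library spread, which may be technical.

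Prox1 encodes a homeobox transcription factor that drives horizontal cell formation, and it is also present in AII amacrine cells, in some bipolar cells and in Müller glia. Slc6a9 encodes the plasma membrane glycine transporter GlyT1, which clears glycine from the synaptic cleft and marks glycinergic amacrine cells. Promoters and enhancers of active genes are often transcribed from both strands, which leaves short non-coding RNAs pointing away from a shared centre.

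The Prox1 start is shown because the most abundant feature of its window begins there and runs the other way. The stretch below is the 250 bases before the RefSeq start of Prox1 (GRCm38.p6, minus strand, chr1:190170828-190171077), written 5′ to 3′ along Prox1. Capitals mark the 70 bases that lie inside the feature MSTRG.6950.
Prox1 upstream stretch: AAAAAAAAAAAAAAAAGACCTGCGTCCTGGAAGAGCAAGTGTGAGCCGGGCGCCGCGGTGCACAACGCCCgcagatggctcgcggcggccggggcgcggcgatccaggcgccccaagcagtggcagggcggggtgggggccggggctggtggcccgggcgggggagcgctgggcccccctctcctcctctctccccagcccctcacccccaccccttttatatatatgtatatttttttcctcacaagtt

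Of the 3 Slc6a9 promoters in the RefSeq table, the middle one is shown because it alone holds the core of the site bound by NRL. The 93 bases before its first annotated exon (plus strand, chr4:117849100-117849192) are given, with the match to TGCTGA in capitals.
Slc6a9 inner promoter stretch: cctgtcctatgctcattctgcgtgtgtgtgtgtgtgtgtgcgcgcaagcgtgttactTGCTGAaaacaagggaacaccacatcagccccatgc
Searched as TGCTGA or its reverse complement TCAGCA, this core occurs in 19.5% of the 32851 promoters of 300 bases in the table. All 300 bases of each promoter were searched, also where fewer are printed here. The core of the site bound by CRX, the photoreceptor homeobox factor (TAATCC or GGATTA), occurs in 7.06% of them. Neither occurs in the 2 Prox1 promoters, and the CRX core occurs in none of the 3 Slc6a9 promoters. A match of 6 letters is a description of the sequence and not a binding site.

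The listed features held 3238184 to 4876429 reads per library. At the Nrl locus, the feature MSTRG.28375, on the strand opposite to Nrl, held 33.3 to 55.5 normalised counts in the wild-type libraries. It held 0.758 in knockout 5 and 0 in the other 5 knockout libraries. Since the table lists non-coding features, the mRNAs of cell type markers were not measured here. Features above a mean of 5 overlapped 12 of 14 rod marker genes and 11 of 14 cone marker genes, but 0 of 7 microglial and 0 of 7 vascular marker genes. Wild-type 1, which had the fewest reads, was the highest wild-type library for 12 of the 19 tested members, against 34.0% of all tested features. Knockout 5 was the lowest knockout library for 8 of these 19, against 22.2% of all tested features. In whole retina, fewer cells of a type and less RNA per cell cannot be told apart.

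In the 2 windows together, 7 features were lower and 1 was higher in knockout, and the largest change among these 8 was 2.61-fold. Values are read counts scaled between libraries by the authors (normalised counts). A log2 difference is the knockout mean minus the wild-type mean of log2(normalised count + 1), a scale that understates changes of low features. A feature was called when limma gave an adjusted p below 0.05, with Benjamini-Hochberg adjustment over all 21395 features with a mean of at least 5. Of the 25 members, 19 reached this mean and 8 of these were called, or 42.1%, against 28.1% of all features tested. Lower calls made up 12.6% and higher calls 15.6% of all features. In 4 of the 19 tested members the values of the groups did not overlap, near the 20.2% of all features tested. Among the members not tested, the groups did not overlap in MSTRG.63411. In the 9 libraries entered in the count tests, edgeR and DESeq2 each called 9 of the 19 members, against 26.8% and 25.6% of all features. The median log2 difference was -0.20 over the 19 members and -0.02 over all features.

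The Prox1 window held 13 features on the plus strand and 2 on the minus strand, while Prox1 itself lies on the minus strand (190118035 to 190170714). Of its 12 tested features, 4 were lower and 8 were not called. That is 33.3% called, near the 28.1% of all features tested. The lower features numbered 3 without wild-type 1, 3 or 4 or knockout 3, 5 or 6, and 5 without wild-type 5 or knockout 2. limma called 0 higher, with 0 higher at an unadjusted p under 0.05 and 0 higher by edgeR and by DESeq2. The log2 differences of the 8 that were not called ran from -0.999 to 0.51. The plot of log2 differences by distance shows the changed features far apart, at an exon of Prox1 and at 2 sites upstream.

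**Figure D1:**
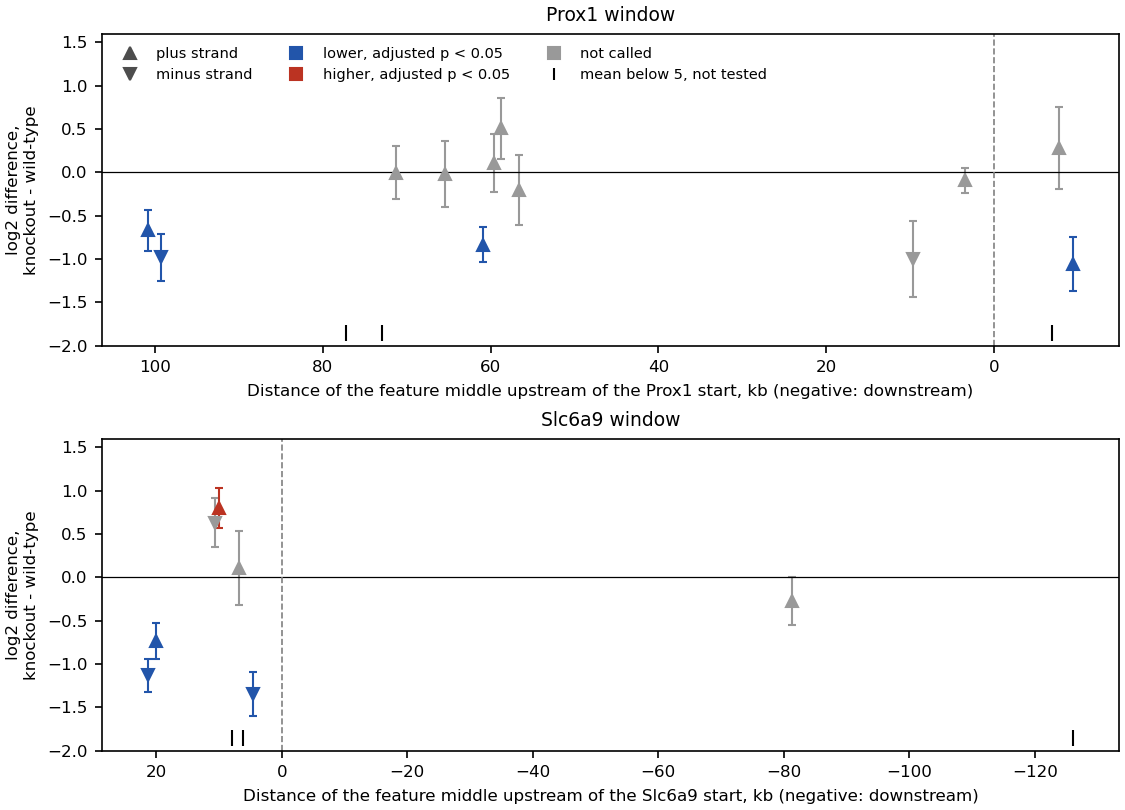
Log2 difference (knockout minus wild-type, with its standard error) of each tested feature against the distance of its middle upstream of the Prox1 or Slc6a9 start, in kb. Triangles point up for the plus strand and down for the minus strand, blue and red mark features called lower and higher, and black ticks mark features with a mean below 5. The 4 lower features of the Prox1 window lie at 3 separate places, whereas the called features of the Slc6a9 window all lie upstream of the gene.

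Inside Prox1, 3 features lie on the strand opposite to the gene, and the one over an exon was lower without Nrl. MSTRG.6946 (190161190 to 190161464, plus strand) lies wholly over a long internal exon of Prox1. It held 12.3, 12.2, 12.1, 14.5 and 10.1 normalised counts in wild-type 1 to 5 and 5.20, 7.07, 4.98, 6.72, 3.03 and 5.86 in knockout 1 to 6. All 5 wild-type libraries were above all 6 knockout libraries. The means were 12.2 ± 1.57 (SD, n = 5) and 5.48 ± 1.45 (SD, n = 6), a log2 difference of -1.06 (SE 0.31, limma adjusted p = 0.00996). The feature rests on 78 reads in 9 libraries. The other 2 lie in an intron: MSTRG.6947 had means of 5.92 ± 5.37 and 6.65 ± 4.69 (adjusted p = 0.729 in limma), the first falling to 3.63 without wild-type 1, and MSTRG.6948 averaged 4.90 and was not tested. The labels call the reads stranded, but the sources used here do not give whether counting used strand, so reads of MSTRG.6946 and of Prox1 mRNA cannot be told apart.

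The most abundant feature of the window was not called. MSTRG.6950 (190171008 to 190177297, plus strand) begins 294 bp upstream of the annotated Prox1 start and lies in the intron of Prox1os, the annotated antisense RNA that starts inside Prox1 and runs away from it. It held 698, 649, 633, 737 and 624 normalised counts in wild-type 1 to 5 and 689, 741, 638, 606, 551 and 551 in knockout 1 to 6. The ranges overlapped, and the highest and lowest values of the 11 libraries were both in knockout. The means were 668 ± 47.8 (SD, n = 5) and 629 ± 76.3 (SD, n = 6), a log2 difference of -0.09 (SE 0.15, limma adjusted p = 0.706). Per kb of its span this was 106 normalised counts in wild-type and 100.04 in knockout.

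On the other strand of the same intron, MSTRG.6951 (190180081 to 190180520) depended on the libraries used. It held 37.0 normalised counts in wild-type 1 and 4.03 to 11.3 in the other wild-type libraries, against 2.88 to 14.1 in knockout. limma did not call it (log2 difference -0.999, adjusted p = 0.0926, and 0.315 without wild-type 1). In the 9 libraries of the count tests, edgeR (log2 difference -1.80, adjusted p = 0.00148), DESeq2 (-1.91, adjusted p = 0.00143) and limma (-1.58, adjusted p = 0.00397) called it. Those 9 libraries leave out knockout 2, where its highest knockout value was found, and wild-type 5, where its lowest wild-type value was found.

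Beyond the 3′ end of Prox1os, a row of plus-strand intergenic features runs from 56472 to 77130 bp before the Prox1 start, and 1 of them changed. MSTRG.6955 (190230919 to 190232409) held 160.5, 114.8, 80.7, 106 and 76.7 normalised counts in wild-type 1 to 5. In knockout 1 to 6 it held 56.1, 66.6, 49.8, 63.3, 61.4 and 51.7. Every wild-type value lay above every knockout value, and the wild-type libraries were spread more widely. The means of 108 ± 33.6 (SD, n = 5) and 58.2 ± 6.70 (SD, n = 6) gave a log2 difference of -0.83 (SE 0.20, limma adjusted p = 0.00199). Its neighbours on the same strand, MSTRG.6952, MSTRG.6953, MSTRG.6954, MSTRG.6956 and MSTRG.6957, ranged from 2.08 to 26.9 normalised counts over all libraries and overlapped between the groups. None of these 5 was called by limma, edgeR or DESeq2, and none had an unadjusted p under 0.05 in limma. MSTRG.6958 and MSTRG.6959, with means of 2.26 and 2.44, were below the limit for testing.

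At the far end of the window, 2 features about 100 kb upstream of Prox1 point away from each other with a gap of 266 bp, and both were lower. MSTRG.6960 (190269612 to 190270480, minus strand) held 128, 104, 64.0, 78.4 and 66.6 normalised counts in wild-type 1 to 5 and 65.5, 46.4, 32.4, 72.9, 21.2 and 39.1 in knockout 1 to 6. Knockout 1 and knockout 4 fell within the wild-type range. The means were 88.2 ± 27.2 (SD, n = 5) and 46.3 ± 19.8 (SD, n = 6), a log2 difference of -0.98 (SE 0.27, limma adjusted p = 0.00601).

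Its partner MSTRG.6961 (190270747 to 190272291, plus strand) held 185, 92.2, 118.8, 109 and 103.9 normalised counts in wild-type and 102.9, 104.0, 57.3, 98.9, 66.0 and 41.0 in knockout, in the same order. Wild-type 1 stood above the rest, and the remaining values of the groups overlapped. The means were 122 ± 36.7 (SD, n = 5) and 78.3 ± 27.1 (SD, n = 6), a log2 difference of -0.67 (SE 0.24, limma adjusted p = 0.0371). This call was lost when wild-type 1, 3 or 4 or knockout 3, 5 or 6 was left out (adjusted p from 0.0552 to 0.115 in limma), and with libraries scaled to equal totals (adjusted p = 0.0638).

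**Figure D2:**
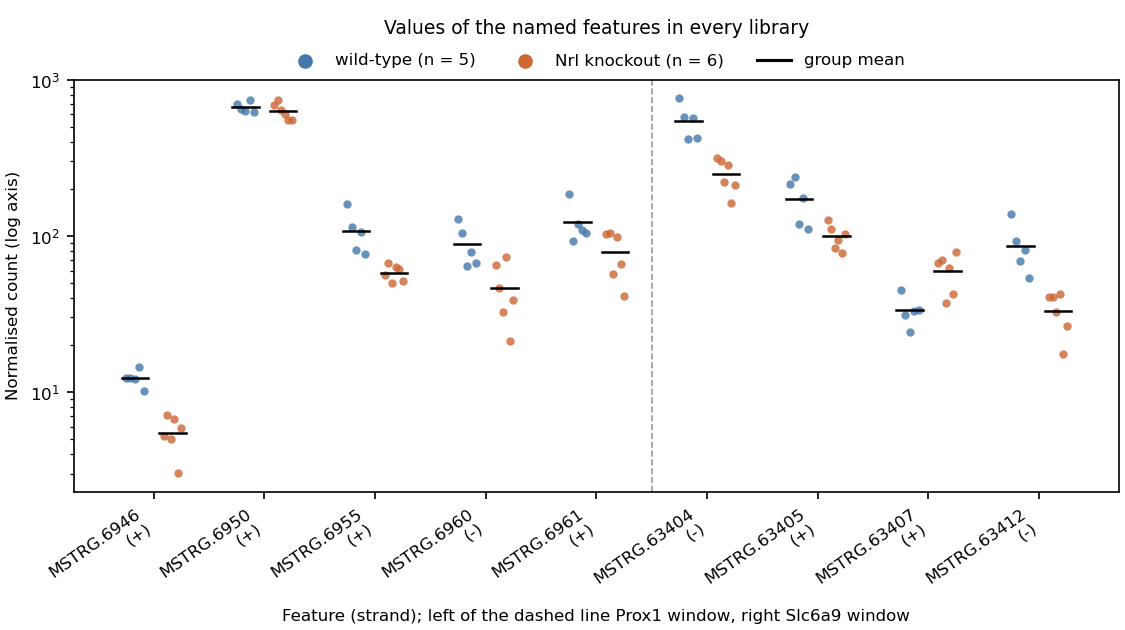
Normalised counts (log axis) of the 8 called features and of MSTRG.6950 in each of 5 wild-type (blue) and 6 knockout (orange) libraries, with group means as bars and the strand below each name. MSTRG.6946, MSTRG.6955, MSTRG.63404 and MSTRG.63412 show no overlap between the groups, MSTRG.6950 shows means of 668 and 629, and MSTRG.63407 is the one feature with the higher mean in knockout.

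No feature of the table overlapped Slc6a9 itself (117834506 to 117875198, plus strand). Of the 10 features in its window, 8 lay within 25 kb upstream of the gene and 2 lay beyond it. Of the 7 tested, 3 were lower, 1 was higher and 3 were not called. That is 57.1% called, against 28.1% of all features tested. The lower and the higher features came from 3 places within 20 kb, and they alternated along the chromosome: lower, higher, lower.

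The most abundant features of this window form a head-to-head pair about 20 kb upstream of Slc6a9, and both were lower without Nrl. MSTRG.63404 (117812499 to 117813931, minus strand) held 761, 578, 415, 567 and 422 normalised counts in wild-type 1 to 5 and 317, 302, 222, 285, 162 and 212 in knockout 1 to 6. The lowest wild-type library was above the highest knockout library. Means of 548 ± 142 (SD, n = 5) and 250.1 ± 60.6 (SD, n = 6) gave a 2.19-fold ratio and a log2 difference of -1.13 (SE 0.19, limma adjusted p = 3.6e-05). Per kb of span it held 383 normalised counts in wild-type and 175 in knockout, the highest level per length of all 25 members in both groups.

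MSTRG.63405 (117813767 to 117815055, plus strand) overlaps the start of its partner by 165 bp. It held 214, 237, 119.7, 176 and 109.95 normalised counts in wild-type and 127, 111, 83.8, 94.1, 78.1 and 102.5 in knockout. Knockout 1 and knockout 2 exceeded the lowest wild-type library, so the groups overlapped. Means of 171 ± 56.1 (SD, n = 5) and 99.4 ± 18 (SD, n = 6) gave a log2 difference of -0.73 (SE 0.21, limma adjusted p = 0.00798). If strand was not used in counting, the reads of the shared 165 bp count for both features.

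The next pair, about 10 kb upstream of Slc6a9, went the other way. MSTRG.63407 (117823748 to 117825371, plus strand), whose end overlaps Gm12842, a processed pseudogene on the opposite strand, held 45.3, 31.1, 24.1, 32.9 and 33.3 normalised counts in wild-type 1 to 5. It held 66.5, 69.7, 37.3, 62.4, 42.5 and 79.1 in knockout 1 to 6. Wild-type 1 lay above the 2 lowest knockout libraries, and the other wild-type libraries lay below all knockout libraries. Means of 33.3 ± 7.62 (SD, n = 5) and 59.6 ± 16.3 (SD, n = 6) gave a log2 difference of 0.80 (SE 0.23, limma adjusted p = 0.00929).

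Its partner MSTRG.63406 (117823489 to 117824254, minus strand, sharing 507 bp with it) had means of 43.2 ± 20.7 (SD, n = 5) and 63.7 ± 18.8 (SD, n = 6). The log2 difference of 0.63 was not called (limma adjusted p = 0.0999). It was called without wild-type 1 (adjusted p = 0.0150 in limma) and without knockout 5 (adjusted p = 0.0411). With the replicate number as a block, a fit that leaves out knockout 6 and a pairing the labels do not state, the adjusted p was 0.00582 in limma. In the 9 libraries of the count tests edgeR (adjusted p = 0.319) and DESeq2 (adjusted p = 0.485) did not call it. On the same 9 libraries limma did not call it either. Those libraries leave out knockout 2, where it held 77.7 normalised counts, and wild-type 5, where it held 26.2.

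The feature nearest to Slc6a9 was lower in knockout by the largest ratio among the tested members. MSTRG.63412 (117829084 to 117830567, minus strand) begins 3939 bp before the gene and runs away from it. It held 137, 92.2, 68.7, 81.3 and 53.5 normalised counts in wild-type 1 to 5 and 40.6, 40.4, 32.4, 42.2, 17.4 and 26.4 in knockout 1 to 6. The groups did not overlap. Means of 86.6 ± 31.8 (SD, n = 5) and 33.2 ± 9.83 (SD, n = 6) gave a 2.61-fold ratio and a log2 difference of -1.34 (SE 0.25, limma adjusted p = 0.00013).

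Between these lie short plus-strand features of a few reads, among which MSTRG.63411 (117828314 to 117828446) is named because of its values. It held 1.37 normalised counts in wild-type 1 and 0 in the other 4 wild-type libraries, against 2.08, 3.03, 10.8, 3.84, 3.79 and 8.79 in knockout 1 to 6. In 9 libraries wild-type gave 1 read and knockout 33, which is 23.2 times as much at equal scaling (exact 95% interval 3.88 to 944, counting error only). Its mean of 3.06 kept it out of the test. The lowest mean among all listed features was 2.00, and MSTRG.63411 had means of 0.274 in wild-type and 5.39 in knockout. Its place among the listed features thus rests on knockout. The interval above and the p-values below describe the values it was named for, and give no separate support. With no limit on the mean, limma gave a log2 difference of 2.25 (adjusted p = 0.00085), and the authors' deposited table gives a log2 fold change of 4.26 with an adjusted p of 0.000796. MSTRG.63410 had means of 5.64 ± 4.6 and 5.68 ± 2.56, but its wild-type mean was 3.62 without wild-type 1, where it held 13.7, and MSTRG.63409 averaged 2.28.

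Downstream of Slc6a9, MSTRG.63422 (117915401 to 117916140, plus strand) held 28.1 ± 13 (SD, n = 5) and 22 ± 6.09 (SD, n = 6) normalised counts and was not called (limma adjusted p = 0.536). MSTRG.63427, opposite to an intron of the sialyltransferase gene St3gal3, averaged 2.34.

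In the authors' deposited table, 8 of the 25 members have an adjusted p below 0.05, or 32.0%, against 19.4% of all features with one. Of these, 7 were also called by limma, and MSTRG.63411 is the eighth. MSTRG.6961 has an adjusted p of 0.0604 there. The table also names a chromosomal domain for each feature and the mRNAs that differ in it, and the sources used here do not give how these were made. The Prox1 domain lists Cenpf, a kinetochore gene, as lower and the Slc6a9 domain lists Ccdc24, which overlaps Slc6a9 on the opposite strand, as lower, while neither Prox1 nor Slc6a9 is listed in either direction.

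The 4 tested features of the Slc6a9 domain outside the window lie beyond it, on the strand opposite to St3gal3. Of these, 3 were higher, against 15.6% of all features tested. MSTRG.63433 had means of 20.2 ± 11.6 (SD, n = 5) and 127 ± 39.95 (SD, n = 6), a log2 difference of 2.69 (limma adjusted p = 1.87e-08). Of the 11 tested features of the Prox1 domain outside its window, 1 was higher and 1 lower. That is 18.2% called, against 28.1% of all features tested.

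Whether 2 features changed by different amounts was asked with the log2 ratio between them in each library, using exact two-sided permutation tests over 462 splits and adjusting over the 3 ratios. MSTRG.6950 over MSTRG.63404, the most abundant feature of each window, rose from 0.32 ± 0.30 (SD, n = 5) in wild-type to 1.36 ± 0.25 (SD, n = 6) in knockout. All 6 knockout libraries, at 1.08 to 1.76, were above all 5 wild-type libraries, at -0.12 to 0.61 (adjusted exact permutation p = 0.0130). The unadjusted p of 0.00433 is the smallest these libraries can give. The feature at the Prox1 start thus changed less than the feature 20 kb upstream of Slc6a9, by 1.04 on the log2 scale.

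Within the Prox1 window, MSTRG.6950 over MSTRG.6960 rose from 2.96 ± 0.39 (SD, n = 5) to 3.84 ± 0.58 (SD, n = 6; adjusted exact permutation p = 0.0303). Within the Slc6a9 window, MSTRG.63405 over MSTRG.63404 rose from -1.70 ± 0.25 (SD, n = 5) to -1.30 ± 0.22 (SD, n = 6; adjusted exact permutation p = 0.0303). In both of these ratios the groups overlapped. Both lost the threshold without wild-type 1, 3 or 5 or knockout 2, 3, 5 or 6, and the first also without wild-type 2 (adjusted exact permutation p from 0.0556 to 0.0667).

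**Figure D3:**
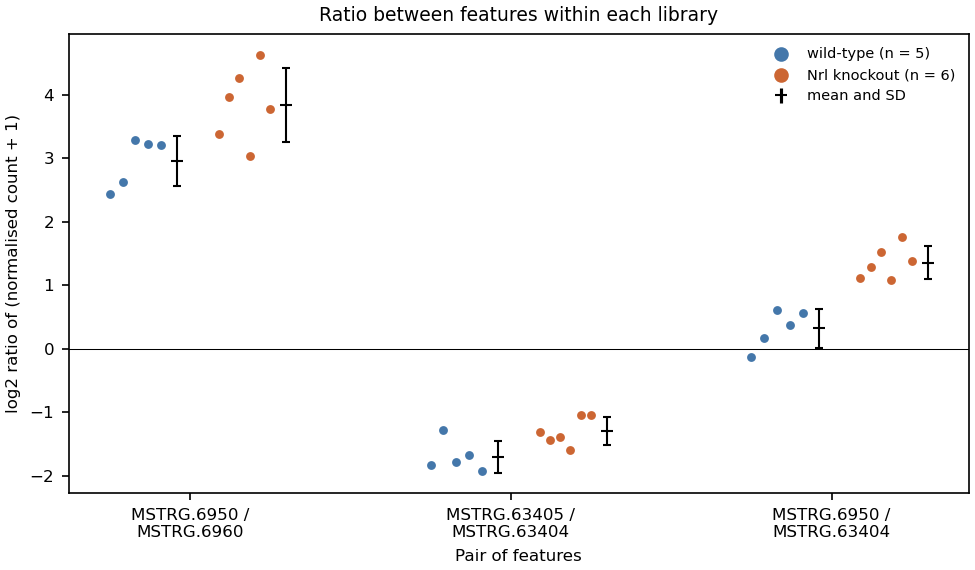
Log2 ratio of (normalised count + 1) between pairs of features in each of 5 wild-type (blue) and 6 knockout (orange) libraries, with the mean and SD of each group. The groups separate for MSTRG.6950 over MSTRG.63404, with 0.32 in wild-type and 1.36 in knockout, and overlap for the other ratios.

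The 2 windows hold 3 head-to-head pairs, in which a minus-strand and a plus-strand feature begin within 1000 bp of each other and point apart. In each pair both features had a log2 difference of the same sign, and in 2 of the 3 both were called. Without wild-type 1 the call of MSTRG.6961 was lost (adjusted p = 0.102 in limma), so the pair near Prox1 then had 1 called feature. The pairs near Slc6a9 overlap by 165 and 507 bp, and their members share reads there if strand was not used in counting. Over the whole table there were 656 such pairs of tested features. In 83.4% of them the signs were the same, in 52.1% both features were called, and in 339 of these 342 the direction was shared. The lower pairs lie about 100 kb before Prox1 and about 20 kb before Slc6a9, and the pair about 10 kb before Slc6a9 is the one with positive signs.

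**Figure D4:**
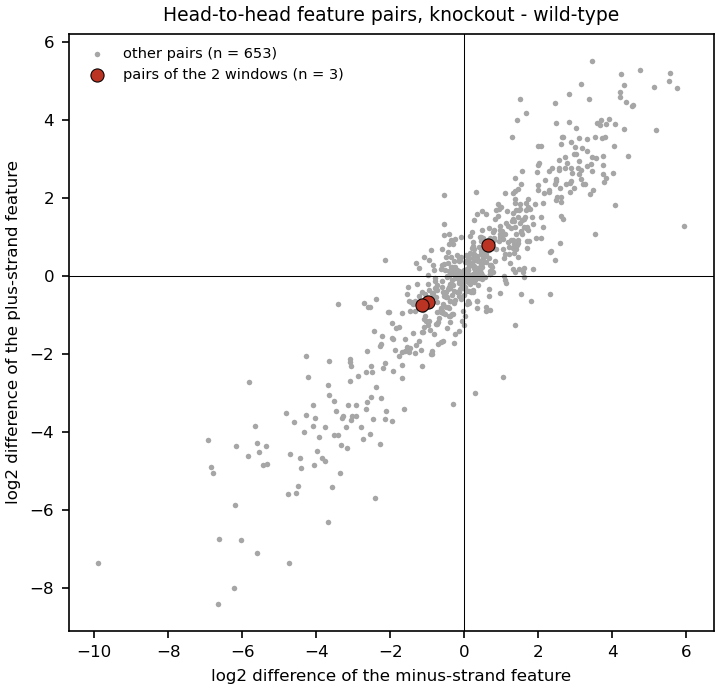
Log2 difference (knockout minus wild-type) of the plus-strand feature against that of the minus-strand feature, for 656 head-to-head pairs, with the 3 pairs of the Prox1 and Slc6a9 windows in red. Most points lie where both signs are the same (83.4%), and the 3 marked pairs lie close to the centre.

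Features at other genes of the same cells were few. The counts below stand against 28.1% of all tested features called, 15.6% higher and 12.6% lower. Of 12 horizontal cell genes, 3 had tested features, with 2 of 4 lower: MSTRG.6946 at Prox1 and MSTRG.31990 opposite to Ndrg1, a stress-responsive gene of horizontal cells, which went from 24.0 ± 5.21 to 2.13 ± 1.44 (log2 difference -3.07). Of 15 amacrine genes, Tfap2a, Pax6, Ebf3 and Prox1 had 6 features, of which MSTRG.6946 alone was lower. The list of Prox1-related fate genes held 13 features at 9 of 27 genes, with 1 higher and 3 lower. That is 30.8% called, near the share over all features. MSTRG.49950 opposite to Neurod1, a proneural gene of amacrine cells and photoreceptors, went from 3.77 ± 2.63 to 16.4 ± 8.73 (log2 difference 1.84). Besides MSTRG.6946, 2 features opposite to Rorb, a nuclear receptor needed by horizontal, amacrine and rod cells, were lower (log2 differences -2.90 and -2.88). The list's median log2 difference was -0.15, against -0.02 over all features.

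Genes of glycine transmission had 4 tested features at 3 of 21 genes: Gphn, which anchors glycine receptors, Gldc, an enzyme of glycine breakdown, and the glutamine transporter gene Slc38a3. limma called 0 of the 4, with 0 at an unadjusted p under 0.05 and 0 by edgeR and by DESeq2. MSTRG.94139 opposite to Slc38a3 had means of 291 ± 95.5 (SD, n = 5) and 255 ± 65.1 (SD, n = 6). The Müller glia list had 4 tested features at 2 of 11 genes. Of these 4, 2 were lower, MSTRG.6946 and a feature opposite to the carbonic anhydrase gene Car2. The bipolar list had 5 of 21 higher and 1 lower, or 28.6% called, near the 28.1% of all features tested. Lists share members: Prox1 stands in the horizontal, amacrine, Müller, lymphatic endothelium and fate gene lists, so MSTRG.6946 counts in each. Of 36 rod list features 25 were lower and 4 higher, the latter at Pde6b and Sag. Of 30 cone list features 18 were higher and 3 lower, the latter at Guca1a and Pde6c.

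The features most like each window's most abundant one were sought among 8256 features elsewhere with a mean of at least 20, by Pearson correlation of log2 values over the 11 libraries, given as a description. For MSTRG.6950 they were MSTRG.31006 (r = 0.913), near the start of March6, MSTRG.38203 (r = 0.877), in Gm26694 and Gm16278, and MSTRG.94283 (r = 0.870), near the start of Arih2. None of the 3 was called, and MSTRG.31006 had means of 228 ± 30.1 (SD, n = 5) and 217 ± 46.7 (SD, n = 6). For MSTRG.63404 they were MSTRG.14549 (r = 0.996), MSTRG.27976 (r = 0.989) and MSTRG.10755 (r = 0.988). These lie opposite to the sulfotransferase gene Hs3st3b1, Otx2os1 and Gm33843, in that order. Of these, MSTRG.27976 also overlaps Gm49156 on the same strand. All 3 were lower in knockout, with log2 differences of -1.62, -1.38 and -1.29. The libraries share a group difference and a scaling, and 616 features had r above 0.9 with MSTRG.63404, against 1 with MSTRG.6950.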

How the data were processed

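Each library has a column of signal in the deposited table of non-coding features. The authors normalised read counts with DESeq2 to make it, per the file headers, and the name gives mm10. The deposited log2 fold change, Wald score, p-value and adjusted p-value come from a comparison by the authors. Per the submitters' processing notes, mm9, mm10, Cuffdiff, Cufflinks 2.2.1 and TopHat2 2.0.10 were used, in roles that are not stated. Per the labels' protocols, reads were 50 bp, single-end and stranded. For the counting tool, its use of strand and any filter, the sources used here give nothing.

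The table's 36180 lines held 36097 unique features, and each was used 1 time. Starts in the table count from 0, since 209 matched a GENCODE M21 exon start after adding 1 and 22 as written; positions are printed counting from 1. Features were placed on GENCODE M21, and promoters came from RefSeq (GRCm38.p6). Promoter stretches are printed only up to the first annotated exon.

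The main test was limma 3.58.1 (R 4.3.3; lmFit, eBayes with robust and trend set), applied to log2 of the normalised count + 1. The model held group alone and tests were two-sided. Every value was a whole multiple of the smallest of its library (tolerance 0.001, 100% of values). Whole reads of 4 wild-type and 5 knockout libraries were therefore also tested by DESeq2 1.42.0 and by the quasi-likelihood test of edgeR 4.0.16. In the remaining ones, wild-type 5 and knockout 2, values were whole multiples too. Their step of 1 read nearly equals 1 normalised count, and they did not enter. Where a library shows 0, the limit is 3 reads, or 2.28 to 4.11 normalised counts. Such floors, and the interval given, cover counting error only. The tests were also run on simulated data with 200 changed features and the same spread setting for every feature. The real data held 6022 called features, a setting that this check does not cover.

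The windows, members and gene lists were chosen with earlier results of these data known. All values are given for called members and for the most abundant member on each strand of each window. Alternatives were other pseudocounts, limits on the mean, scaling, tools, a replicate block and leaving out each library.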

Additional observations from a re-analysis of the deposited data

Results flagged for a closer look

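Among 38 groups of values, a group being one tested member in wild-type or in knockout, 6 held a library far from the others of its group by Dixon's test. The chance rate of about 1 in 20 holds for independent, normally distributed values. Here the values were not logged and the groups share the same libraries, so 6 of 38 cannot be set against that rate. Of these, 4 were in wild-type 1. MSTRG.6951 held 37.0 normalised counts there, against 11.3 in the next library. MSTRG.6961 held 185, with 118.8 next, and its call was lost without wild-type 1 (adjusted p = 0.102 in limma). MSTRG.63410 held 13.7, with 4.84 next, and MSTRG.6947 held 15.1, also with 4.84 next. In knockout, MSTRG.6947 stood at 15.6 in knockout 1, with 7.07 next. MSTRG.6951 stood at 14.1 in knockout 2, with 6.83 next. Wild-type 1 had the fewest reads, and the part of depth in these values was not tested.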

How the results depend on the processing

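Of the 8 called members, 7 were called in every alternative in which they were tested, which leaves out MSTRG.6946 at a mean of at least 20, and the exception was MSTRG.6961. None of the 8, nor MSTRG.6950, changed sign, while 6 members that were not called did (MSTRG.6947, MSTRG.6952, MSTRG.6954, MSTRG.6956, MSTRG.6957 and MSTRG.63410). Over all features, a mean of at least 20 in place of 5 left 1722 higher and 1628 lower. Higher members of the Slc6a9 window numbered 2 in place of 1 with no limit on the mean and with the replicate block. Leaving out 1 library at a time gave 1 to 2 higher and 3 lower members there, 3 to 5 lower and 0 higher in the Prox1 window, and 3115 to 3456 higher and 2366 to 2785 lower features overall. The same gave 0.73 to 1.05 for the log2 ratio of MSTRG.6950 over MSTRG.6960 (knockout minus wild-type), 0.34 to 0.50 for MSTRG.63405 over MSTRG.63404 and 0.93 to 1.11 for MSTRG.6950 over MSTRG.63404. Replicate numbers were not taken as pairs, because the labels do not say that a number is shared between groups. Libraries with the same replicate number deviated together by r = 0.00135 to 0.294 over 5 pairs. Of the 5, 1 correlated best with its own number, which does not settle whether a number marks a shared batch. The fit with the replicate block, which leaves out knockout 6, called 3715 higher and 3217 lower features and 9 members. Without the block, the same libraries gave 3199 higher and 2521 lower features and 7 members. limma on the 9 libraries of the count tests, an alternative chosen after seeing the data, called 9 members, as did edgeR and DESeq2. Features below a mean of 5 are limited by depth, since 1 read is worth 0.758 to 1.37 normalised counts.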
